A study of Mus musculus with 3 samples.

Results

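Tsbp1 (testis expressed basic protein 1) is a protein-coding gene of the mouse major histocompatibility region, and its RNA was among the most heavily crosslinked to the splicing regulator Tra2β in adult testis. It is 1 of 37240 genes with at least 1 crosslink in these libraries. The gene was selected on its crosslink counts in the same 3 libraries, so its levels and their distribution are a description and carry no test. The samples were 3 replicate iCLIP libraries of minced adult testis from wild type mice, made with a polyclonal antibody against Tra2b, and there was 1 group only, with no treated or mutant samples to set against them. The study's mice were kept on a C57BL/6J background, and their age beyond adult and the number of animals per library are not stated in the labels or methods read here. The labels call the material total testis of mixed cell types, and the methods describe germ cells set free by mincing before irradiation, so the germ and somatic cell types of the preparation were measured together. The study describes the libraries as a biological triplicate. No input or control immunoprecipitation library was analysed here, and no RNA abundance from the same tissue enters any value, so a high crosslink count and a high RNA level cannot be told apart.

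In iCLIP, ultraviolet light bonds a protein to the RNA that it touches, the complex is pulled down, and the reverse transcriptase stops beside the bond, and the position where a cDNA stops points to the bonded base. Each crosslink below is 1 unique cDNA at 1 nucleotide. Tra2β is a serine/arginine-rich-like splicing activator of the testis and many other tissues, best known for binding purine-rich RNA with GAA repeats inside exons and for promoting the inclusion of those exons. Tsbp1 is built of many short exons, several of them alternatively spliced, followed by one long last exon.

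The 3 libraries held 348033, 619571 and 488719 crosslinks in replicates 1, 2 and 3. The tissue label was checked with marker genes fixed for 6 cell classes. Summed exonic crosslinks per 1000000 crosslinks of the library (CPM) ran from 402 to 1477 for 6 spermatocyte markers and from 339 to 2717 for 7 spermatid markers, against 22.6 to 31.6 for 6 spermatogonial, 56.5 to 207 for 6 Sertoli cell and 46.8 to 121 for 6 Leydig cell markers. Of 4 blood cell markers, Hbb-bs, Cd79a and Lyz2 had no exonic crosslink in any library, and Ptprc had 0, 4 and 0 in replicates 1, 2 and 3 (6.46 CPM in replicate 2). Replicate 2 stood apart: of its crosslinks in protein-coding genes, 31.4% lay in exons, against 47.5% in replicate 1 and 59.7% in replicate 3. Its part in each result for Tsbp1 is shown by giving every library on its own.

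Tsbp1 lies on the plus strand of chromosome 17 at chr17:34617777-34679708 (GRCm39, GENCODE vM39, gene ENSMUSG00000057246.18). The gene spans 61932 nt and has 14 annotated transcripts, of which 9 are protein coding, 1 is a target of nonsense-mediated decay, 2 retain an intron and 2 have no defined coding sequence. Its canonical transcript, Tsbp1-201, has 20 exons and 1917 nt, with the start codon in exon 3 and the stop codon in exon 20. All transcripts together cover 4090 nt of exonic sequence, in 36 separate blocks, and leave 57842 nt of intron. Of the 18 internal canonical exons, 17 have a length that is a multiple of 3, 13 are at most 51 nt long and 5 are exactly 21 nt long. No gene overlaps it on its own strand. On the opposite strand the long noncoding RNAs Gm65128 and Gm65530 overlap its first part, and they held 1 and 4 crosslinks in all, with 1, 1 and 6 crosslinks on the opposite strand over the whole gene.

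In all 3 libraries the densest window of 41 nt within coding sequence lay in the end of the open reading frame in exon 20. This end is printed from the plus strand of chr17:34679168-34679438 up to the base before the stop codon, 5′ to 3′, with GAA in capitals. The 271 nt are 71.6% purine and hold 20 copies of GAA.
exon 20, coding end: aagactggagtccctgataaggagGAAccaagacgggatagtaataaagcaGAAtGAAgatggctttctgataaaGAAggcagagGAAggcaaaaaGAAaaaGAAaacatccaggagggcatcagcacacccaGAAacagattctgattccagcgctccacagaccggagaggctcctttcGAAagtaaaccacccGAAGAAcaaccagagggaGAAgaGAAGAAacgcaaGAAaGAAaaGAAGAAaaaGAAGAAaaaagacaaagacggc
A contrasting sequence is that of exon 15 (chr17:34667740-34667796, coding), the second densest exon of the transcript, which has no GAA and is 33.3% purine. It is made largely of a tandem repeat, gtcagcctt, a unit of 9 nt found 5 times without a mismatch, and these copies are in capitals.
exon 15: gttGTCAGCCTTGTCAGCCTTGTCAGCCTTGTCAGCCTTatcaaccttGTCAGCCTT
Also shown is the densest of the exons that the canonical transcript leaves out, a coding exon of 39 nt within canonical intron 6 (chr17:34656145-34656183), again with GAA in capitals.
alternative exon of 39 nt: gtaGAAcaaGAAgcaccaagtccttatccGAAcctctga

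The gene held 573 crosslinks in replicate 1, 1050 in replicate 2 and 1071 in replicate 3, which is 1646, 1695 and 2191 CPM (1844 ± 302, SD, n = 3). The 3 levels in CPM were close, with the highest in replicate 3. By mean CPM over exons and introns it ranked 11 of 37240 genes, and 11, 9 and 7 in the separate libraries. The division of these crosslinks between exons and introns was much less even. In replicate 1, 306 crosslinks were exonic and 267 intronic, a share of 53.4% in exons (95% Clopper-Pearson interval 49.2 to 57.5%). In replicate 2, 231 were exonic and 819 intronic, a share of 22.0% (19.5 to 24.6%). In replicate 3, 739 were exonic and 332 intronic, a share of 69.0% (66.1 to 71.8%). The intervals did not overlap, so the libraries differed by more than counting error, which is all that such intervals cover. Their mean was 48.1% ± 23.9 (SD, n = 3), and 61.2% without replicate 2. The order of the 3 libraries was the same as over all protein-coding genes. Among 2396 protein-coding genes with at least 100 crosslinks, 1378 had a lower mean exonic share than Tsbp1, and the median gene had 42.3%.

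Per nucleotide, exons were above introns in every library. Exons held 74.8, 56.5 and 181 crosslinks per kb in replicates 1, 2 and 3, and introns held 4.62, 14.2 and 5.74. The log2 ratio of the densities was 4.02, 2.00 and 4.98 (3.66 ± 1.52, SD, n = 3), lowest in replicate 2. The lower ratio of that library had parts on both sides: its exonic level of 373 CPM was below the 879 and 1512 CPM of the others, and its intronic level of 1322 CPM was above their 767 and 679 CPM.

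**Figure D1:**
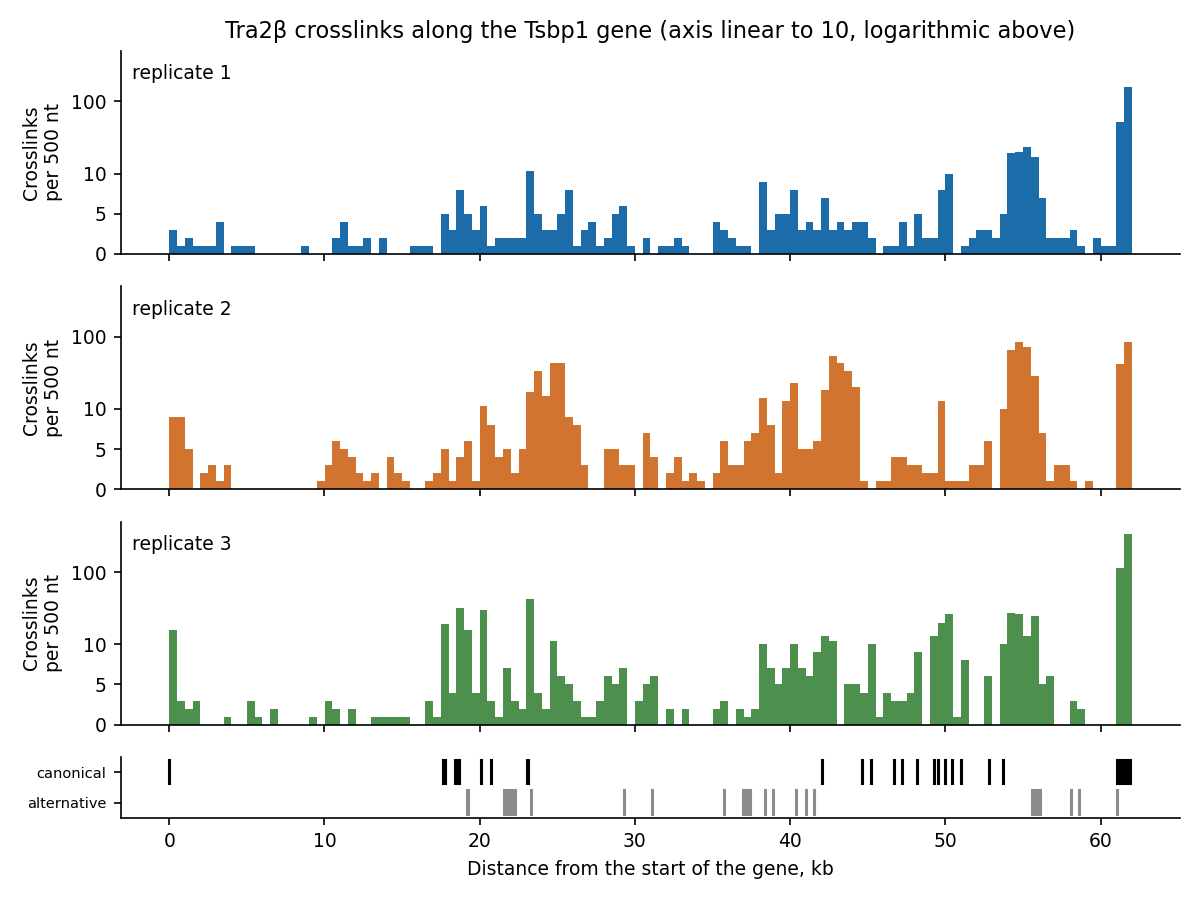
Crosslinks of each replicate in bins of 500 nt along Tsbp1, against the distance from the start of the gene in kb, on an axis that is linear to 10 and logarithmic above. The lowest panel gives exons of the canonical transcript and exonic stretches absent from it. The last bins, which hold exon 20, are the highest in replicates 1 and 3, and replicate 2 has raised stretches in introns 6, 7 and 19, where it held 283, 169 and 248 crosslinks.

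Exon 20, the last exon (chr17:34678837-34679708, 872 nt), held 209, 126 and 453 crosslinks in replicates 1, 2 and 3. These are 79.5%, 75% and 67.7% of all crosslinks in the canonical exons (74.1% ± 5.93, SD, n = 3), from 45.5% of their length. The 3 shares lay near each other although the libraries differed greatly in how much of the gene's signal was exonic. Its density was 689, 233 and 1063 CPM per kb (662 ± 416, SD, n = 3), and it ranked first of the 20 exons on pooled crosslinks and without each library in turn. Within single libraries the lead was small or absent. Exon 15 followed closely in replicates 1 and 3, with 655 and 1041 CPM per kb. In replicate 2, exon 5 was above exon 20, with 342 CPM per kb on 7 crosslinks.

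Within exon 20 the libraries parted at the stop codon. The coding part of 602 nt held 118, 115 and 213 crosslinks, and the 270 nt from the stop codon on held 91, 11 and 240. The coding part therefore had 56.5% of the exon's crosslinks in replicate 1, 91.3% in replicate 2 and 47.0% in replicate 3 (64.9% ± 23.3, SD, n = 3). Replicate 2 had little signal after the stop codon. Replicates 1 and 3 were denser there than in the coding part, with 337 and 889 crosslinks per kb against 196 and 354. Over the last exons of 20754 protein-coding canonical transcripts, the share from the stop codon on was 60.9%, 55.9% and 58.9%, so the 8.73% of replicate 2 in Tsbp1 was not a feature of last exons in that library as a whole. The cause was not tested.

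Along the coding part of the exon the density was higher toward its end. The first 257 nt held 22, 20 and 49 crosslinks, or 354 per kb over the 3 libraries together. The next 74 nt, which another transcript removes as an intron inside the exon, held 17, 7 and 15, or 527 per kb. The coding end printed above held 79, 88 and 149, or 1166 per kb (95% Poisson interval 1041 to 1302, for counting error only). In the same order GAA stood at 1.95, 5.41 and 7.38 copies per 100 nt. In replicate 2 this coding end alone held 69.8% of the exon's crosslinks, against 37.8% and 32.9% in replicates 1 and 3.

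The densest windows show the same parting. Of all windows of 41 nt within single exons, the one with the most pooled crosslinks lay after the stop codon at chr17:34679477-34679517, with 35, 4 and 67 crosslinks. It is 39.0% purine and has no GAA. The next lay in the coding end at chr17:34679363-34679403, with 17, 46 and 34 crosslinks, 85.4% purine and 6 copies of GAA.
densest coding window: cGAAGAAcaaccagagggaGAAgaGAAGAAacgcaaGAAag
The coding window was the densest of the whole gene in replicate 2, where it took 27.4% of the canonical exonic crosslinks, against 6.46% and 5.08% in replicates 1 and 3. In replicates 1 and 3 the densest window of the gene started at nt 643 and 632 of exon 20, after the stop codon. The pooled densest window held 8.57% ± 5.61 (SD, n = 3) of the canonical exonic crosslinks. Without replicate 1 or without replicate 3, where the window is chosen again, the densest held 16.2% and 16.9%. The choice of the densest window therefore depended on which libraries entered it.

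**Figure D2:**
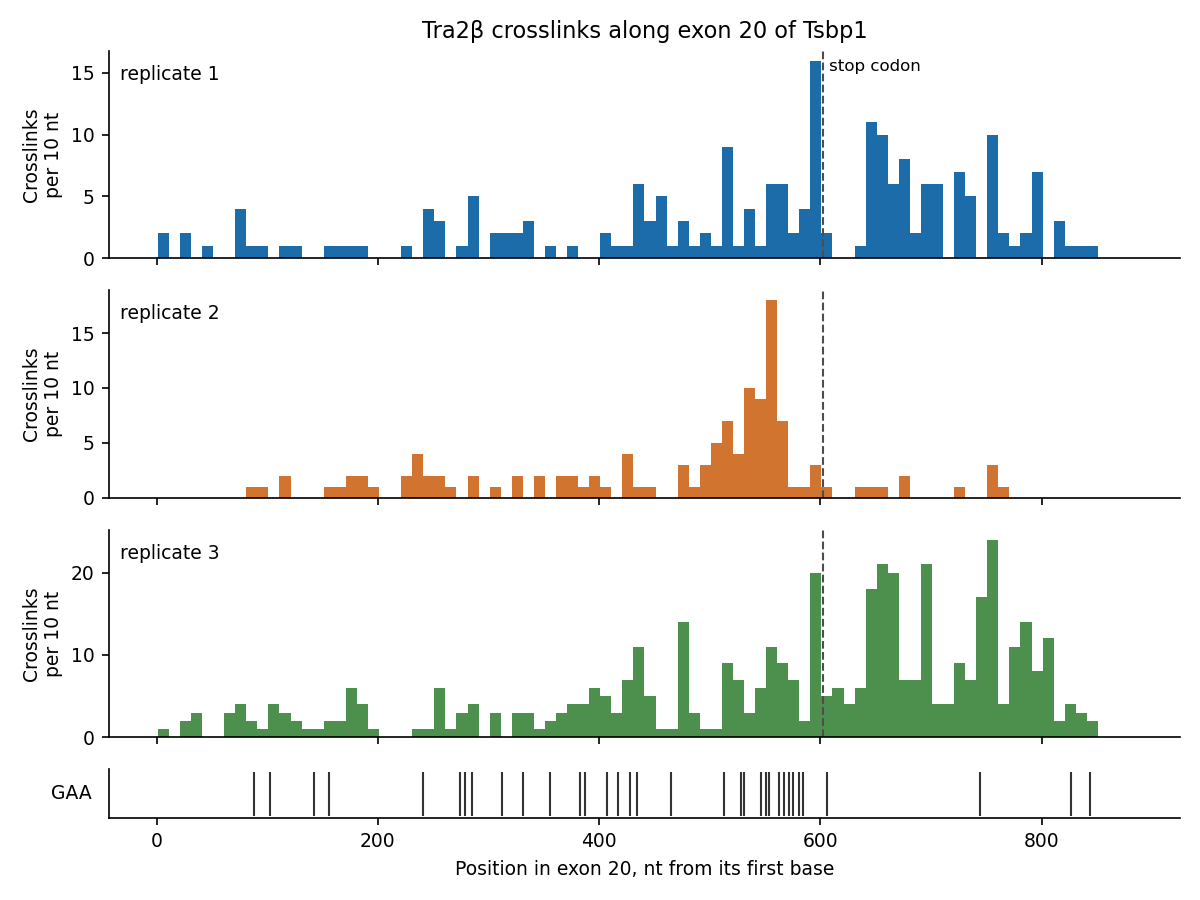
Crosslinks of each replicate in bins of 10 nt along exon 20, by position in nt from its first base, with the last coding base as a dashed line and every GAA marked in the lowest panel. Replicates 1 and 3 have peaks on both sides of the stop codon, with 91 and 240 crosslinks after it, and replicate 2 has 11 there and a single peak over the GAA-rich coding end.

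Single nucleotides held few crosslinks each. The gene had crosslinks at 1964 nucleotides over the 3 libraries, of which 1593 (81.1%) had 1 crosslink and 42 had at least 5. Some of the highest were in exon 20, and they are shown with 10 bases on either side and the crosslinked base in capitals. The G at 34679427, in the coding end, held 6, 0 and 9 crosslinks. The T at 34679536, after the stop codon, held 3, 0 and 11. Neither had a crosslink in replicate 2, whereas the G at 34679395 held 3, 4 and 1.
34679427, coding end: gaagaaaaaaGacaaagacgg
34679536, 3′ untranslated: gcatcatggtTataaaatcca
34679395, coding end: gagaagaaacGcaagaaagaa
In exon 20, T made up 19% of the nucleotides and 32.5%, 19.8% and 33.8% of the crosslinks in replicates 1, 2 and 3, so that it was above its share of the sequence by a wide margin in replicates 1 and 3 only. There G made up 22.9% of the nucleotides and 25.8%, 24.6% and 31.6% of the crosslinks. In the other canonical exons T made up 26.8% of nucleotides and 51.9%, 42.9% and 46.8% of crosslinks. In introns the figures were 28.1%, and 51.7%, 33.6% and 49.7%. The share of T was the lowest in replicate 2 in all of these parts.

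Outside exon 20, the densest exons were 15, 12, 13, 4, 9, 6 and 16 in that order of pooled crosslinks per nt. Exon 15 held 13, 6 and 29 crosslinks, which is 655, 170 and 1041 CPM per kb and 4.94%, 3.57% and 4.33% of the canonical exonic crosslinks. All 3 libraries thus had it at a similar share, and the exon was second in density without each library in turn, but fell behind exon 12 when each position was counted as 1. Its single highest nucleotide was the A at 34667779, inside the imperfect copy of the repeat, with 2, 0 and 10 crosslinks.
34667779, exon 15: tgtcagccttAtcaaccttgt
Exon 12 (21 nt) held 4, 1 and 8 crosslinks and exon 13 (27 nt) held 1, 2 and 11. Exon 4 (87 nt), next after the exon with the start codon, held 5, 10 and 30. Exon 9 (21 nt) held 2, 0 and 7, and exon 16 (24 nt), which is 29.2% purine, held 1, 1 and 7. In all of these the highest count was in replicate 3. Together the 5 densest exons, 20, 15, 12, 13 and 4, held 84.6% ± 4.65 (SD, n = 3) of the canonical exonic crosslinks on 55.5% of the length. They were ranked on these same counts, so a share above that of their length was built in. Most of it came from exon 20, which alone held 74.1% on 45.5% of the length.

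Exon 6 (135 nt) held 7, 3 and 41 crosslinks. In several transcripts it is annotated as shorter exons at its ends. The last 30 nt held 4, 2 and 18 of those crosslinks, and the first 30 nt held 2, 0 and 6. Its highest nucleotide was the T at 34640948 with 1, 0 and 10 crosslinks, so its density was largely from replicate 3.
34640948, exon 6: gttgctcgttTtcatcagata
Exon 5 (33 nt) went the other way, with 0, 7 and 3 crosslinks, or 0, 4.17% and 0.448% of the canonical exonic crosslinks. The shares of internal exons with at least 10 crosslinks were compared between the 3 libraries over all protein-coding genes by Fisher's exact test with Benjamini-Hochberg adjustment. Exon 5 was called there, the 1 of 9 exons of Tsbp1 tested, beside 2.62% of 4545 exons called in all (119). At a minimum of 20 crosslinks none of 4 Tsbp1 exons was called, with 1 of 4 at an unadjusted p under 0.05. Because the gene was selected on these counts, nothing is read from the call.

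**Figure D3:**
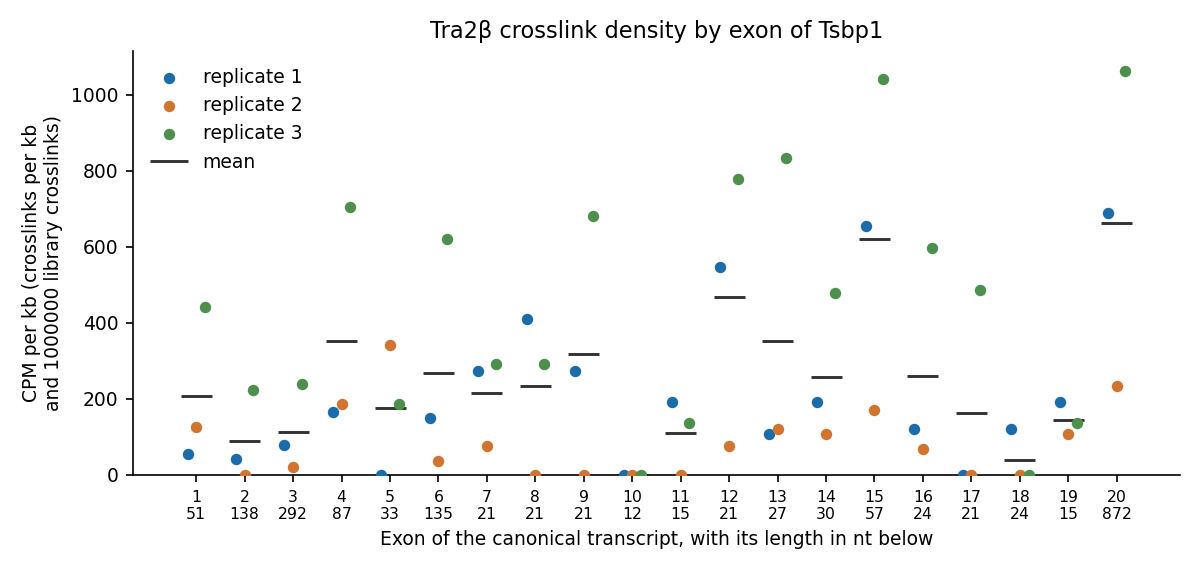
CPM per kb (crosslinks per 1000000 crosslinks of the library and per kb) for the 20 canonical exons, with the length of each exon in nt under its number, 1 point per replicate and a line at the mean. Exons 20 and 15 have the highest means, 662 and 622, exon 10 has no crosslink in any library, and replicate 3 is the highest point in 14 of 20 exons.

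Exons 2 and 3 near the 5′ end of the transcript had low density. Exon 1 (51 nt) held 1, 4 and 11 crosslinks, or 314 per kb pooled, and was 10 of 20 in density. Exons 1 to 3 together, which are untranslated up to the start codon in exon 3, held 11, 8 and 60 crosslinks on 481 nt, and the coding exons 7 to 19 held 31, 14 and 82 on 309 nt. The log2 ratio of the first density over the second was -2.09, -1.41 and -1.09 (-1.53 ± 0.51, SD, n = 3), below 0 in each library. Without exon 15 (57 nt), a setting added after the values were seen, it was -1.62, -0.93 and -0.76 (-1.10 ± 0.46). Exon 2 (138 nt) held 2, 0 and 15 crosslinks and exon 3 (292 nt) held 8, 4 and 34. In an exact binomial test of each internal exon against the other exons of its transcript by length, with Benjamini-Hochberg adjustment over 51567 internal exons in 3453 genes, exons 2 and 3 were called below the rest in all 3 libraries, and 0.00388% of all exons were so called (2, which are these). With only internal exons as the reference, which leaves out exon 20, neither was called, and 2 became 0. No internal exon of Tsbp1 was called above the rest, nor was any at an unadjusted p under 0.05 in all 3 libraries (0 of 18), beside 0.200% of all exons (103). The test used the counts by which the gene was selected, and nothing is read from it.

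The short exons of Tsbp1 form a long series. All transcripts together annotate 32 distinct internal exons of at most 51 nt, of which 13 are canonical and 19 are alternative, some of them inside a longer exon. Of the 32, 30 have a length that is a multiple of 3, and 15 are exactly 21 nt long. The 13 canonical short exons held 18, 15 and 56 crosslinks on 285 nt, and the 5 longer internal exons held 35, 23 and 149 on 709 nt. The log2 ratio of the densities was 0.37, 0.71 and -0.09 (0.33 ± 0.40, SD, n = 3), smaller than its SD. No difference between these classes as a whole was detectable, but the longer exons were themselves uneven. Pooled, exons 2 and 3 held 123 and 158 crosslinks per kb, and exons 4, 6 and 15 held 517, 378 and 842. The short exons together held 312 per kb, so the ratio depends on which longer exons are the reference. Exon 20 was denser than the short exons in each library, by 1.89, 1.42 and 1.39 on the log2 scale (1.56 ± 0.28, SD, n = 3).

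The 5 canonical exons of 21 nt, exons 7, 8, 9, 12 and 17, held 11, 2 and 26 crosslinks on 105 nt. The 10 alternative ones held 11, 14 and 9 on 210 nt. Replicate 2 thus had more crosslinks in the alternative exons, which are longer in sum, and replicate 3 more in the canonical ones. Replicate 1 had equal counts on these unequal lengths, so its density was higher in the canonical exons. The sequences of some of them are printed with GAA in capitals, which only some of them contain (5 of 15 exons of 21 nt).
exon 7: aactgactcaaaaaaccttcc
exon 8: tgcaaactcctggacctattg
exon 12: ctgtaatacctgtggacatat
exon 17: taattacacagaGAActtcaa
alternative, 34658155-34658175: ctgGAAccattggacctataa
alternative, 34658811-34658831: tgcagttctcggcacctattc
alternative, 34659302-34659322: ccggagctacaggacctatca
The first and the last of these alternative exons were 71.4% identical over a global alignment, and the middle one and exon 8 were 69.6% identical, the closest pairs. The best match of exon 7 was at 60.9%, of exon 12 at 66.7% and of exon 17 at 65.2%, so the likeness is partial. Exon 7 held 2, 1 and 3 crosslinks, exon 8 held 3, 0 and 3, and exon 17 held 0, 0 and 5. The 3 alternative exons held 3, 1 and 2, 2, 0 and 2, and 0, 2 and 0 crosslinks in that order. With counts so small, these exons could not be ranked against each other.

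Exons 13 and 14 were the only canonical internal exons at least 80% identical to another internal exon of the gene.
exon 13: gttgtcaaccagcactGAAgcctagct
exon 14: gttgtcaacagctagcaatcaaacctagct
Exon 13 held 1, 2 and 11 crosslinks and exon 14 held 2, 2 and 7. The pair lies 182 nt apart, and both, like exon 15, begin with gttgtca. The log2 ratio of their density over that of the other internal exons was 0.19, 1.1 and 0.70 (0.66 ± 0.46, SD, n = 3), above 0 in the 3 libraries but resting on 3, 4 and 18 crosslinks. With the 9 exons that were at least 60% identical to another, the ratio was 0.80, -0.09 and 0.43 (0.38 ± 0.45, SD, n = 3). Among alternative exons, a pair of 51 nt in intron 6 was 86.3% identical, and its members held 1, 0 and 4 and 0, 2 and 4 crosslinks. How reads with several matches were treated upstream is not known, but of the gene's nucleotides 90.6% were followed by 30 nt that occur at a single place in the genome, and these held 99.5% of the crosslinks. Exon 10 (12 nt) was the one canonical exon without a crosslink, and a count of 0 over the 3 libraries allows up to 3 crosslinks, or 250 per kb. No canonical internal exon of 20 nt or more was without one, one alternative exon of 21 nt in intron 19 was (chr17:34676418-34676438), and exon 18 (24 nt) had a single crosslink, in replicate 1.

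Exonic sequence absent from the canonical transcript came in 17 stretches of 2173 nt, and held 43, 63 and 70 crosslinks. Their density was above that of the introns by 2.11, 1.04 and 2.50 on the log2 scale (1.89 ± 0.75, SD, n = 3). The alternative exon of 39 nt printed above held 6, 9 and 8 crosslinks, or 590 per kb pooled (95% Poisson interval 374 to 885), and it is annotated in 4 transcripts. Its counts in the 3 libraries were close to each other. A stretch of 601 nt in intron 19 (chr17:34673368-34673968) held 20, 27 and 21 crosslinks. It overlaps exons of 2 transcripts, and internal exons of 26 and 17 nt lie inside it, each in 1 transcript. Another stretch, of 142 nt in intron 3, held 3, 6 and 15. An exonic stretch of 763 nt within intron 5 held 2, 4 and 9, of which an internal exon of 27 nt at its start held 0, 2 and 3. Taken by base, 2790 nt that some transcript splices out or that the canonical transcript lacks held 82, 83 and 171 crosslinks, and 1300 nt present in every transcript that spans them held 224, 148 and 568. The log2 ratio of these densities was -2.55, -1.93 and -2.83 (-2.44 ± 0.46, SD, n = 3). Without exon 20, a comparison added after the values were seen, it was -1.85, -1.07 and -2.41 (-1.78 ± 0.67). Taken over all bases, alternative sequence was thus lower than constitutive sequence in each library, with or without the last exon. Short exons alone did not keep this direction in every library. The 12 whole alternative exons of at most 51 nt that the canonical transcript lacks were set over the canonical internal exons of such length. The log2 ratio was -0.21, 0.45 and -1.36 (-0.37 ± 0.92, SD, n = 3). How often each transcript is made in testis was not measured here, so these ratios are not ones of binding per RNA molecule.

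**Figure D4:**
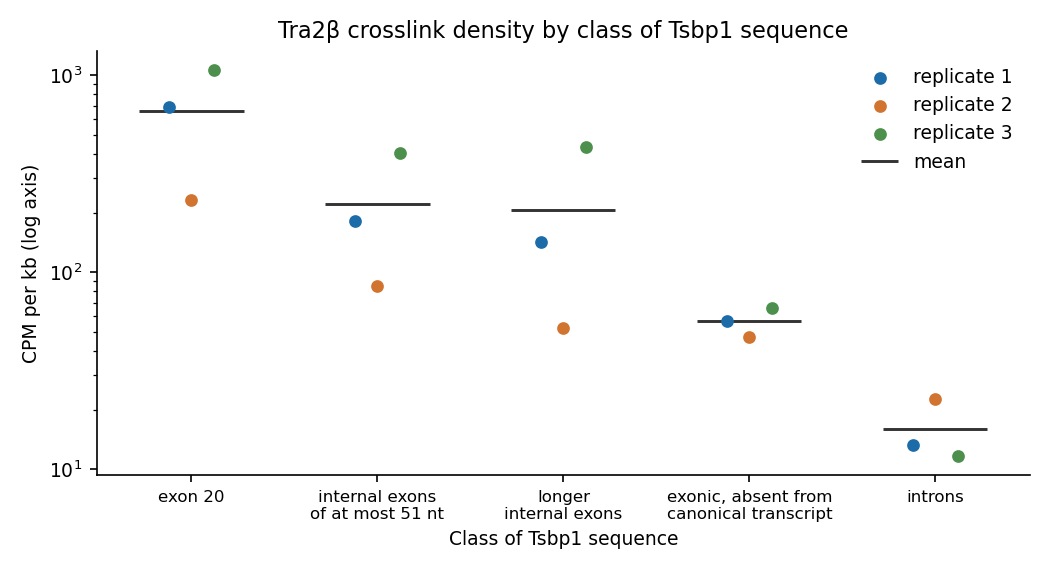
CPM per kb, on a log axis, for 5 classes of Tsbp1 sequence, with 1 point per replicate and a line at the mean. Exon 20 is highest and introns are lowest in each library, the 2 groups of internal exons overlap, and replicate 2 is the lowest point in the exonic classes and the highest in introns.

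Intronic crosslinks were also uneven. Of 19 introns, 17 had a crosslink and the 5 with the most, introns 6, 19, 7, 1 and 17, held 91.5% of all of them. Intron 6 (18879 nt) held 94, 283 and 121 crosslinks, which is 35.2%, 34.6% and 36.4% of each library's intronic crosslinks in the gene. Intron 19 (7348 nt), which leads up to exon 20, held 81, 248 and 93, or 30.3%, 30.3% and 28%. In these 2 introns the shares were nearly the same in the 3 libraries, although replicate 2 had more crosslinks in all. Intron 7 (2550 nt) differed, with 19, 169 and 31 crosslinks, or 7.12%, 20.6% and 9.34%. It had the highest intronic density over the libraries together, 85.9 per kb, and replicate 2 gave 77.2% of it. Intron 1 is nearly as long as intron 6 (17613 nt) and held 31, 62 and 38 crosslinks, or 7.44 per kb against 27.3 per kb in intron 6. Intron 17 (1801 nt) held 8, 13 and 6. At the borders of introns, the first 100 nt of introns held 2.11, 4.23 and 4.76 crosslinks per kb, the last 100 nt 3.18, 3.71 and 9.0, and the rest 4.75, 14.9 and 5.66. Both borders were below the rest in replicates 1 and 2, and the last 100 nt were above it in replicate 3. These borders held only 4, 8 and 9 crosslinks at the start of introns and 6, 7 and 17 at the end. The rest came mostly from introns 6, 19 and 7, whereas short introns gave the borders as much length as long ones. Position and intron were therefore not separated here.

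The densest intronic windows were those of replicate 2. A window in intron 7 (chr17:34660757-34660797) held 0, 24 and 0 crosslinks and is 85.4% purine. A window in intron 19 (chr17:34672290-34672330) held 2, 20 and 3, and another further on (chr17:34672801-34672841) held 0, 20 and 0. A window in intron 6 (chr17:34642527-34642567) held 0, 18 and 1. All of them contain GAA, which is in capitals, and together with the coding end of exon 20 they were the 5 densest windows of that library in the gene. In the order printed below, those after the first are 43.9%, 68.3% and 56.1% purine. How many other intronic windows hold so short a word was not measured, and these were picked on counts, so nothing is read from its presence.
intron 7: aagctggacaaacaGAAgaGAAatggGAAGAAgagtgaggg
intron 19: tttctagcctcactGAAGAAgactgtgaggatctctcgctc
intron 19, further on: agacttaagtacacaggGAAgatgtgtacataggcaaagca
intron 6: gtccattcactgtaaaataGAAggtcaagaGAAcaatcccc
Replicates 1 and 3 had at most 3 crosslinks in any of these windows, and their own 5 densest windows were all in exon 20.

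The motif GAAGA, a GAA-rich word of the kind Tra2β binds, was sought on the gene strand only. Of exonic crosslinks, 27.5%, 40.7% and 20.3% lay within 30 nt of one (29.5% ± 10.3, SD, n = 3), against 15.8% of exonic nucleotides. The share was above that of the nucleotides in each library and highest in replicate 2. Exon 20 held most of the crosslinks and is also the exon richest in GAAGA. There 36.4%, 67.5% and 29.6% of crosslinks and 35.7% of nucleotides were near GAAGA, whereas in the other exons 8.25%, 8.57% and 5.59% of crosslinks and 10.4% of nucleotides were. Within exon 20, replicate 2 was well above the share of nucleotides, replicate 1 was near it and replicate 3 below it. In introns the shares were 12%, 26.7% and 12%, against 9.02% of nucleotides. Over the 20 exons, Spearman's rho of pooled density was -0.30 with purine content and 0.02 with GAA per 100 nt. These are descriptions over exons of 1 transcript, which share their libraries, and the smallest exons have very few crosslinks.

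Agreement between the libraries depended on the scale. At single nucleotides, 32 positions of the gene had a crosslink in all 3 libraries, which is 6.49%, 3.48% and 4.05% of the positions of replicates 1, 2 and 3. Of these 32, 25 were in canonical exons, 23 of them in exon 20. Allowing 5 nt on either side raised the count to 163. Replicates 1 and 3 shared 123 positions, 24.9% of those of replicate 1 and 15.6% of those of replicate 3. Replicates 1 and 2 shared 62, 12.6% and 6.74%, and replicates 2 and 3 shared 86, 9.35% and 10.9%. By exon, Spearman's rho of density over the 20 exons was 0.20 for replicates 1 and 2, 0.49 for 1 and 3 and 0.48 for 2 and 3. By intron, over 19 introns, it was 0.83, 0.51 and 0.59 in the same order. Replicate 2 was thus nearest to replicate 1 in the order of the introns and farthest from it in the order of the exons.

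Set beside genes of like exonic level that are named here, Tsbp1 had the lowest share in exons. Its exonic level of 879, 373 and 1512 CPM (921 ± 571, SD, n = 3) ranked 11 of 16535 protein-coding genes, and per kb it ranked 9 of 16464 genes with at least 500 nt of exon. Among the 5 protein-coding genes with the most similar exonic levels over the 3 libraries, by Euclidean distance of log2 CPM, were Nasp (0.46), Chd5 (0.53), Dnah8 (0.70) and Odf2 (0.78). Of these, Nasp encodes a histone chaperone, Dnah8 a dynein heavy chain and Odf2 a protein of the sperm tail. Their mean exonic shares were 90.3%, 88.6%, 54.3% and 79.5%, each above the 48.1% of Tsbp1. Akap12, a scaffold protein gene with one very long coding exon, had 1816, 313 and 3779 exonic crosslinks and a mean exonic share of 97.6%. In all of these, as in Tsbp1, exonic CPM was lowest in replicate 2 and highest in replicate 3. Nasp, Chd5, Dnah8 and Odf2 were chosen by their likeness to Tsbp1 over the same libraries. The shared order is therefore partly built into the choice, and nothing is read from it. Of 20 spermatid-expressed genes listed for context, all 20 had lower mean exonic CPM than Tsbp1 (median 142, range 12.7 to 870), and 18 had lower mean exonic CPM per kb (median 52.1, against 225 in Tsbp1). For a gene selected on its counts and ranked 11 by this level, such an outcome was nearly fixed in advance, and nothing is read from it. In such mixed cells, more cells with a transcript and more transcript in each cell cannot be told apart.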

How the data were processed

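The deposited files hold, per the labels, crosslink counts of 3 Tra2β iCLIP libraries: the authors' iMAPS pipeline gave unique cDNA counts per nucleotide and strand on build mm39, with Trim Galore 0.6.7, Bowtie 1.3.1, STAR 2.7.9a and UMI-tools 1.1.2 named in the submitters' processing notes. Parameters and the treatment of reads with several matches are not stated there. The counts were used as deposited. Tsbp1, the exons and the gene lists were chosen with earlier results of these data known.

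Crosslinks on the gene strand were summed over GENCODE vM39 exons (all transcripts merged) and introns with Python 3.11.15, numpy 2.4.6 and scipy 1.17.1. CPM is per 1000000 crosslinks of the library. Log2 ratios had 0.5 crosslinks added to each side. Genes with at least 20 exonic crosslinks entered the exact binomial exon test, and exons with at least 10 entered Fisher's exact test between libraries, both at an adjusted p of 0.05. A count of 0 allows 3 crosslinks, or 8.62, 4.84 and 6.14 CPM in replicates 1, 2 and 3. Exons with values per library were the 8 densest, those called to differ between libraries and those that a class turns on, and introns were the 5 with the most crosslinks. Identity came from global alignment. Alternatives left out each library, counted each position as 1, moved positions by 1 nt, kept unique 30-nt sequence, and changed the reference exons, minimum counts, windows, motif and classes. Of the 5 genes nearest in exonic level, 1 is not reported here, nor is 1 crosslinked position of exon 20.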

Additional observations from a re-analysis of the deposited data

How the results depend on the processing

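Of 73 alternatives to the values for Tsbp1, 65 stayed within the spread between libraries or within 1.5 times the count, and 8 moved beyond it; none changed direction. With only internal exons as the reference, 0 exons were below the rest of the transcript in place of 2. With at least 20 crosslinks in the exon, 0 exons differed between libraries in place of 1. Leaving out 1 library at a time, with the window chosen again, gave the densest window 11.7% to 16.9% of the exonic crosslinks in place of 8.57%. Without exon 20 the log2 ratio of alternative over constitutive density was -1.78 in place of -2.44. Near GAAGA within 10 nt lay 18.3% of exonic crosslinks, and near AGAA within 30 nt 54.8%, in place of 29.5%. The shares of exonic nucleotides were 6.89% and 35.6%, in place of 15.8%. Positions shared by all 3 libraries rose from 32 to 163 within 5 nt. Unique sequence was required in Tsbp1 only. No paired analysis was possible because there was 1 group of libraries. The number of crosslinks limits the short exons: 13 canonical exons held 89 in all. The exon tests count every crosslink as independent, which leaves out part of the spread between libraries.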
